A study of Mus musculus with 7 samples.

Results

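The genes described here encode the TRAF adaptors, A20 with its partner ABIN-1, the cIAP ubiquitin ligases and the kinase NIK. They were chosen by gene symbol, as Traf1, Traf2, Traf3, Traf5, Traf6, Tnfaip3, Tnip1, Birc2, Birc3 and Map3k14, a rule that uses no measured value. The list was nevertheless proposed with earlier results of these data known, so counts over it are descriptions. All 10 were among the 28666 genes of the deposited table, and all 10 passed the filter on low counts that left 17461 genes for testing.

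The libraries are poly(A) RNA-seq of bone marrow-derived dendritic cells (BMDCs) sorted by flow cytometry into immature cells (3 libraries) and mature cells (4 libraries). The methods describe BMDCs from female C57BL/6 mice aged 6 to 8 weeks, grown with GM-CSF and IL-4 over 7 days and kept across a Transwell membrane from MC38 cells, a mouse colon carcinoma line. Both groups share this culture. The cells were profiled after 24 h of DON, a glutamine antagonist used at 5 µM. The drawing of the experiment also names its solvent DMSO, so the treatment behind a given library is not certain. The study also describes its DON arm as given more glutamine than its DMSO arm. The comparison asks which transcripts separate cells that matured from cells that did not in the same kind of culture. The markers of this sort are not stated, although elsewhere the study counts CD80+CD86+ cells as mature DCs. A general statement in its methods gives at least 3 independent experiments for all data, but the labels tie no library to an animal or culture. P values therefore measure the spread between these libraries, and whether that spread is biological or technical is not given library by library.

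TRAF proteins are adaptors that dock on the cytoplasmic tails of TNF receptor family members, and TRAF6 also serves the IL-1 and Toll-like receptors. They carry the cIAP ligases and other ubiquitin enzymes to the receptor, where ubiquitin chains switch on NF-κB and MAP kinases, and A20 and ABIN-1 limit that signal. In resting cells TRAF2, TRAF3 and the cIAPs also keep NIK at a low level by having it degraded, and loss of this control starts the alternative NF-κB pathway. In dendritic cells these proteins act below CD40 and related receptors, through which T cells drive maturation.

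Several genes of this group are known NF-κB targets, so the bases before their start sites were read from the RefSeq promoter table (build GRCm38.p6), which matched 10 of 10 genes with 12 start sites. The 250 bases before each start were searched on both strands for the κB consensus and for the sequence GGAATTTCC. The consensus was found in 3 of 10 genes, Tnfaip3, Tnip1 and Traf3, compared with 7.25% of 32851 promoters. A gene was counted if any of its start sites had a match, while the share is per promoter. GGAATTTCC was found in Tnfaip3, compared with 0.286% of promoters. The 130 bases before the start are printed 5′ to 3′ for the genes with a match and for the genes with the largest rises in mature cells, with matches in capitals.
Tnfaip3, chr10:19015411-19015540, minus strand: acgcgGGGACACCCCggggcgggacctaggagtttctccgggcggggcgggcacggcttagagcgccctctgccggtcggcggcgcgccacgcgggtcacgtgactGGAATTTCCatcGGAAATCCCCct
Tnip1, chr11:54962941-54963070, minus strand: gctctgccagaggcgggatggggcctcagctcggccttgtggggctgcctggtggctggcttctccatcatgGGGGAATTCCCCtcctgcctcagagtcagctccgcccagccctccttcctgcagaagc
Traf3, chr12:111166240-111166369, plus strand: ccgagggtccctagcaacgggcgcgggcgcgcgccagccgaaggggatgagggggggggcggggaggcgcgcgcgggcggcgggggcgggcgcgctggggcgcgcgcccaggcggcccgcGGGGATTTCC
Traf1, chr2:34961773-34961902, minus strand: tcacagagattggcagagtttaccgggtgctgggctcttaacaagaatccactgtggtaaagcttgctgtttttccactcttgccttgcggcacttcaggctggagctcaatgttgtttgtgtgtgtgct
Birc2, chr9:7837058-7837187, minus strand: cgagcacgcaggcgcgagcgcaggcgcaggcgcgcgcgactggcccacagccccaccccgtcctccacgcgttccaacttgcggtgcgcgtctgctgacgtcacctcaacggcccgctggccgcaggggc
Map3k14, chr11:103267402-103267531, minus strand: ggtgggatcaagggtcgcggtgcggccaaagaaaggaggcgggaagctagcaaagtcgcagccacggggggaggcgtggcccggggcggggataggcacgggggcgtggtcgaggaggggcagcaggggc
Tnfaip3 and Birc2 have 2 start sites each, of which site 1 is printed. Tnfaip3 held consensus matches that began 125 and 12 bases before start site 1, and GGAATTTCC 24 bases before it. The window of its start site 2 held neither sequence. In Tnip1, 3 overlapping matches made up 1 palindromic run that began 58 bases before the start. The match in Traf3 ended at the start itself, 10 bases after it began. The windows of Traf1, Birc2 and Map3k14 held neither sequence, which says only that these letters are not there. A match describes the letters and is not a site or a cause. RefSeq start sites need not coincide with the ends of the deposited gene models given below.

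Total counts were 54846746 to 67973086 per library. The dendritic cell markers Cd86 and Cd80 were higher in mature cells (log2 fold changes of 3.37 and 2.49), which is no independent check if the sort gated on them. Itgax was lower in every mature library than in any immature one, by a log2 fold change of -0.41 (edgeR adjusted p = 0.0124), short of the fold criterion. The summed CPM of 10 macrophage markers was 2379 to 2476 in immature and 441 to 505 in mature libraries, and all 10 passed the criteria as lower. The part of this shift in any result below was not tested, and in bulk RNA fewer cells of a type and less RNA per cell cannot be told apart. The summed CPM of 7 neutrophil, 7 T cell, 5 B cell and 4 NK cell markers stayed at or below 6.79 in every library. That of 5 mast cell and basophil markers was 5.22 to 7.14 in immature and 30.9 to 42.4 in mature libraries. That of 5 epithelial markers was 59.2 to 77.3 over all libraries, mostly from Cdh1 (means of 55.2 in immature and 51.5 in mature). Calls among the markers of these 6 lists were Kit, the epithelial marker Epcam and the T cell marker Cd8a as higher, and the neutrophil marker S100a8 as lower. Epcam went from a mean of 0.268 to 1.28 CPM, Cd8a from 1.09 to 3.09 CPM and S100a8 from 1.81 to 0.722 CPM. By the criteria given below, 6 of 11 dendritic cell markers were called higher, Cd80 and Cd86 among them, and 0 lower. Over all tested genes 13.2% were called higher and 9.95% lower. A list of 9 cardiac muscle genes summed to 4.99 to 5.61 CPM in immature libraries, 26.9 in mature replicate 1 and 708 to 834 in mature replicates 2 to 4, and all 9 were called higher. Mature replicate 3 also stood apart: the median chi-square per gene between it and the other mature libraries was 17.7 to 25.6, compared with 4.26 to 5.27 among those libraries.

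Most of the group was higher in mature cells. Levels are in CPM, the counts of a library divided by its TMM-normalized size, and the log2 fold changes are mature minus immature from edgeR. The criteria for a call are an adjusted p under 0.05 with a log2 fold change of 1 or more in size. By these, 7 of 10 genes were higher and 0 were lower, where 13.2% of all tested genes were called higher and 9.95% lower. The count of lower genes was also 0 at an unadjusted p under 0.05, where 4500 of all 17461 tested genes were lower and 4737 higher. It was 0 with DESeq2 and limma as well, which called 1749 of 27636 and 822 to 1171 of 11758 genes lower. With the adjusted p alone, 9 of 10 were higher and 0 lower, where the background was 23.2% and 22.9%. The groups did not overlap in 9 of 10 genes, with the mature libraries always on the higher side, as was the case for 25.4% of all tested genes (26.7% had them on the lower side). The median log2 fold change was 1.15 over the 10 genes and 0.055 over all tested genes. The rises ran from 1.42-fold in Traf3 to 7.82-fold in Traf1, and Traf5 was the gene that did not differ by the test. A comparison with mature replicate 1 as the only mature library was chosen after seeing the data. It leaves out the libraries rich in cardiac transcripts. There the log2 fold changes of the 7 called genes ran from 1.10 in Tnip1 to 3.00 in Traf1. Those of Tnfaip3, Traf3 and Traf5 were 1.08, 0.73 and 0.049. In that fit the spread comes from the 3 immature libraries alone, and the lone mature library is assumed to vary like them. Without mature replicate 3, 7 of the 10 genes passed the criteria as well, where 2234 of 16954 tested genes were called higher and 1759 lower.

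**Figure D1:**
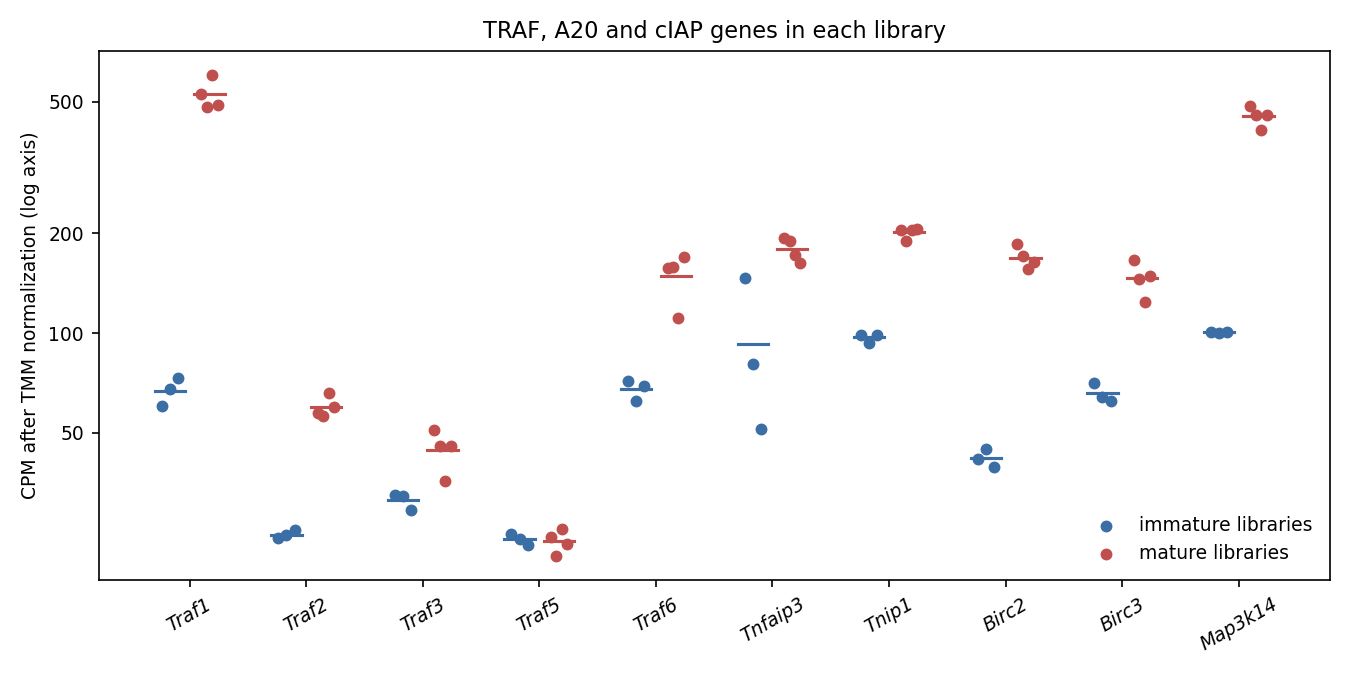
CPM of each gene in the 3 immature (blue) and 4 mature (red) libraries on a log axis, with a horizontal line at each group mean. The mature points lie above the immature points in every gene except Traf5, and Tnfaip3 has the widest immature spread, from 51.5 to 147 CPM.

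Traf1 (ENSMUSG00000026875, chr2:34941750-34961597, minus strand) showed the largest change. TRAF1 is the TRAF protein without a RING domain. It pairs with TRAF2 below receptors such as 4-1BB. Traf1 stood at 60.5, 67.7 and 73.2 CPM in immature replicates 1 to 3. It stood at 527, 483, 602 and 488 CPM in mature replicates 1 to 4. The lowest mature library was thus far above the highest immature one, and mature replicate 3 was the highest of all. The immature mean was 67.1 ± 6.39 (SD, n = 3) and the mature mean 525 ± 54.9 (SD, n = 4). On the log2 scale the rise was 2.97 ± 0.12 (SE, adjusted p = 4.9e-07), which is 7.82-fold (95% interval 6.48 to 9.44). Its log2 fold change stayed between 2.89 and 3.08 in all 18 alternative fits.

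The genes whose log2 CPM most resembled that of Traf1 over the 7 libraries, among 8974 genes with a mean of at least 10 CPM, were Auh, Samsn1 and Klrk1. Their Pearson correlations with it were above 0.999. Auh, which encodes a mitochondrial enzyme of leucine breakdown, went from 35.3 to 96.2 CPM. Samsn1, an adaptor of lymphocytes and myeloid cells, went from 91.0 to 414 CPM. Klrk1, which encodes the receptor NKG2D, went from 1.66 to 20.03 CPM. As many as 300 genes correlated above 0.99, and the libraries form 2 groups, so these values mostly restate the difference between the groups.

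Traf2 (ENSMUSG00000026942, chr2:25517982-25546940, minus strand) encodes the adaptor that recruits the cIAP ligases. Its immature libraries held 24.1, 24.5 and 25.4 CPM, and its mature libraries 57.4, 56.4, 66.2 and 60.1 CPM. The groups were tight and well apart. The rise was 1.28 ± 0.089 on the log2 scale (SE, adjusted p = 6.6e-06), which is 2.43-fold (95% interval 2.11 to 2.80).

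Traf5 (ENSMUSG00000026637, chr1:191997205-192059162, minus strand) encodes an adaptor that binds CD40, CD27 and the lymphotoxin β receptor. It had 24.9, 23.96 and 23.0 CPM in immature and 24.3, 21.3, 25.6 and 23.1 CPM in mature libraries. The groups overlapped, with mature libraries holding both the highest and the lowest value. The log2 fold change of Traf5 was -0.021 ± 0.095 (SE, adjusted p = 0.874). Its 95% interval of -0.24 to 0.19 leaves room for a small change either way, and the sign turned under several settings.

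Traf6 (ENSMUSG00000027164, chr2:101678429-101701669, plus strand) encodes the ubiquitin ligase shared by IL-1, Toll-like, CD40 and RANK receptors. Its level was 71.5, 62.5 and 69.4 CPM in immature libraries. It was 157, 159, 111 and 169.5 CPM in mature libraries. Mature replicate 3 was the low one, yet still above every immature library. The log2 fold change was 1.14 ± 0.15 (SE, adjusted p = 0.000267), a 2.2-fold rise, and it was 1.28 without mature replicate 3.

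Traf3 (ENSMUSG00000021277, chr12:111166370-111267153, plus strand) encodes the adaptor that brings NIK to the cIAP ligases. Its immature libraries held 32.5, 32.3 and 29.3 CPM and its mature libraries 51.0, 45.7, 35.9 and 45.5 CPM. No mature library fell into the immature range, but mature replicate 3 came close to it. The rise of 0.51 ± 0.12 on the log2 scale (SE, adjusted p = 0.00983) was 1.42-fold and did not reach the fold criterion. Without mature replicate 3 the log2 fold change was 0.62, and without immature replicate 3 it was 0.46 with an adjusted p of 0.0508.

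Tnfaip3 (ENSMUSG00000019850, chr10:19000910-19015410, minus strand) encodes A20, a ubiquitin-editing enzyme that shuts down NF-κB signaling. It was the member with the widest spread. Immature replicate 1 held 147 CPM, replicate 2 80.5 CPM and replicate 3 51.5 CPM. The mature libraries held 193, 190.1, 172 and 163 CPM. All mature libraries were above all immature ones, but immature replicate 1 lay closer to the mature range than to immature replicate 3. The coefficient of variation over immature libraries was 52.7% in Tnfaip3 and 0.605% to 9.52% in the other 9 genes. The log2 fold change was 0.95 ± 0.30 (SE, adjusted p = 0.0301), which is 1.93-fold (95% interval 1.20 to 3.10) and just under the fold criterion. Without immature replicate 1 it was 1.44 and passed both criteria. Without immature replicate 3 it was 0.66, with an adjusted p of 0.0596. Without immature replicate 2, mature replicate 1 or mature replicate 2 the adjusted p was also above 0.05 (0.109, 0.0547 and 0.0562), at log2 fold changes of 0.85, 0.91 and 0.93.

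Tnip1 (ENSMUSG00000020400, chr11:54910785-54962917, minus strand), which encodes the ubiquitin-binding protein ABIN-1 that works with A20, was in contrast tightly measured. Its immature libraries held 98.6, 93.7 and 98.9 CPM and its mature libraries 205, 190.3, 205 and 206 CPM. The groups stood about 1 log2 unit apart, with mature replicate 2 slightly below the other mature libraries. The log2 fold change was 1.05 ± 0.072 (SE, adjusted p = 6.4e-06), a 2.07-fold rise (95% interval 1.85 to 2.33). Tnfaip3, Tnip1 and Traf3, whose promoter windows hold the capitals printed above, had log2 fold changes of 0.95, 1.05 and 0.51.

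Birc2 (ENSMUSG00000057367, chr9:7818227-7837063, minus strand) and Birc3 (ENSMUSG00000032000, chr9:7848699-7873170, minus strand) lie side by side and encode cIAP1 and cIAP2. These ligases build ubiquitin chains on RIPK1 and hand NIK to degradation. Birc2 had 41.7, 44.6 and 39.4 CPM in immature libraries and 186, 170.5, 156 and 163.5 CPM in mature libraries. Birc3 had 70.7, 64.3 and 62.5 CPM in immature libraries and 167, 146, 124 and 149 CPM in mature libraries. Both genes separated the groups, and mature replicate 3 was the lowest mature library in each. The log2 fold change was 2.01 ± 0.093 for Birc2 (SE, adjusted p = 8.0e-07) and 1.15 ± 0.11 for Birc3 (SE, adjusted p = 4.6e-05), or 4.03-fold and 2.22-fold. The genes are paralogs, and reads that match both could have been split between them by the counting.

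Map3k14 (ENSMUSG00000020941, chr11:103219762-103267472, minus strand) encodes NIK, the kinase that starts the alternative NF-κB pathway. Its values were 101, 99.8 and 101 CPM in immature and 485, 454, 409.8 and 456 CPM in mature libraries. The immature libraries differed by less than in any other member, and the groups were far apart. The log2 fold change of 2.17 ± 0.085 (SE, adjusted p = 4.7e-07) was a 4.49-fold rise (95% interval 3.92 to 5.14), the largest after Traf1. The transcript 1700028N14Rik shares 135 exon bases with Map3k14, but its own count was at most 31 in any library.

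**Figure D2:**
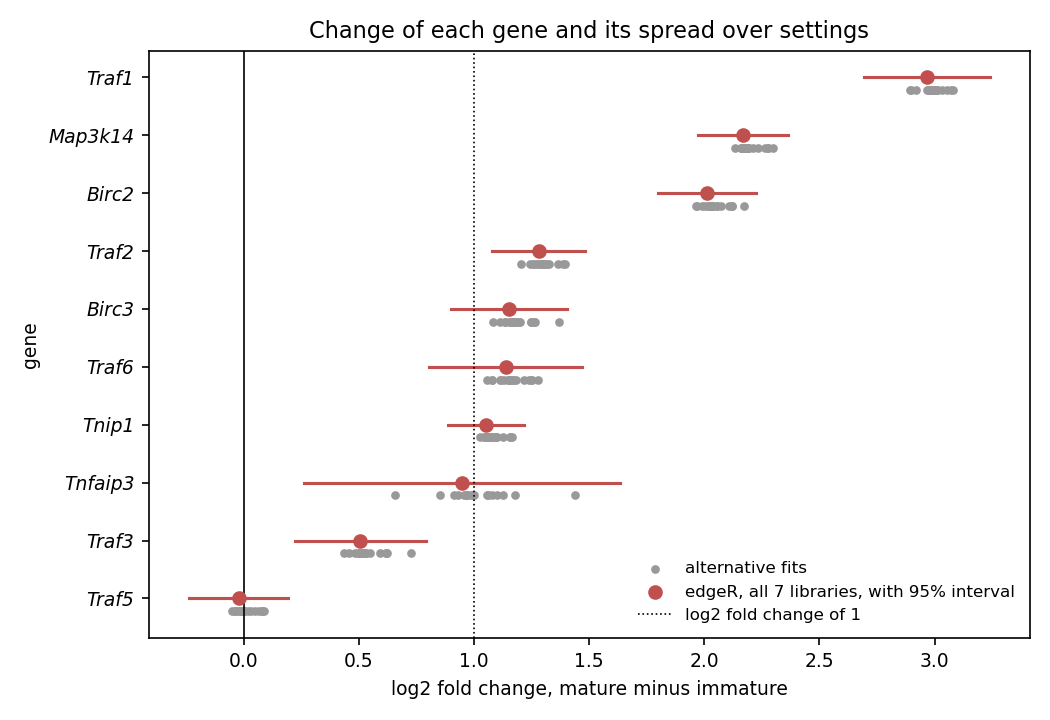
Log2 fold change (mature minus immature) of each gene, with the edgeR estimate from all 7 libraries and its 95% interval in red and the 18 alternative fits as gray points, where the dotted line marks a log2 fold change of 1. Traf1, Map3k14 and Birc2 lie at 2.01 to 2.97, the points of Tnfaip3 spread from 0.66 to 1.44, and those of Traf5 lie on both sides of 0.

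Since partners in a complex act together, 4 ratios of FPKM were taken within each library, a measure that library scaling cannot move. FPKM scales counts by gene length and library total. The FPKM ratio of Traf1 to Traf2 was 1.45, 1.60 and 1.67 in immature libraries and 5.31, 4.95, 5.26 and 4.71 in mature libraries. The ratio was higher in every mature library, with a difference in log2 ratio of 1.69 or 3.22-fold. The FPKM ratio of Map3k14 to Traf3, the kinase to the adaptor that has it degraded, was 3.49, 3.47 and 3.86 in immature and 10.7, 11.2, 12.8 and 11.2 in mature libraries. The log2 ratio differed by 1.67, or 3.18-fold, and the groups did not overlap.

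The cIAP genes, by FPKM, stood in opposite order in the groups. The FPKM ratio of Birc3 to Birc2 was 1.55, 1.32 and 1.45 in immature libraries and 0.821, 0.781, 0.726 and 0.831 in mature libraries. Birc3 thus had the higher FPKM in every immature library and Birc2 in every mature library. That order in mature cells depends on the length used: per kilobase of the longest coding transcript, the mature libraries held 55.8, 51.2, 46.95 and 49.1 CPM of Birc2 and 57.4, 50.1, 42.7 and 51.1 CPM of Birc3, which overlap. The difference in log2 ratio between the groups does not depend on it, since a fixed length cancels. The log2 ratio went from 0.52 ± 0.12 (SD, n = 3) to -0.34 ± 0.089 (SD, n = 4). The FPKM ratio of Tnfaip3 to Tnip1 was 0.731, 0.421 and 0.255 in immature and 0.462, 0.489, 0.411 and 0.388 in mature libraries, so the mature values fell within the immature range. In a two-sided exact permutation test over 35 labelings, 3 of the 4 ratios gave p = 0.0571 (0.0762 after adjustment over the 4). This test doubles the smaller tail, and no lower value is possible under that doubling with 35 labelings. The value lies above 0.05 whatever the ratios are, so the test cannot decide at that threshold. A version that counts labelings by absolute difference was not run. The exact permutation p for Tnfaip3 to Tnip1 was 0.971.

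**Figure D3:**
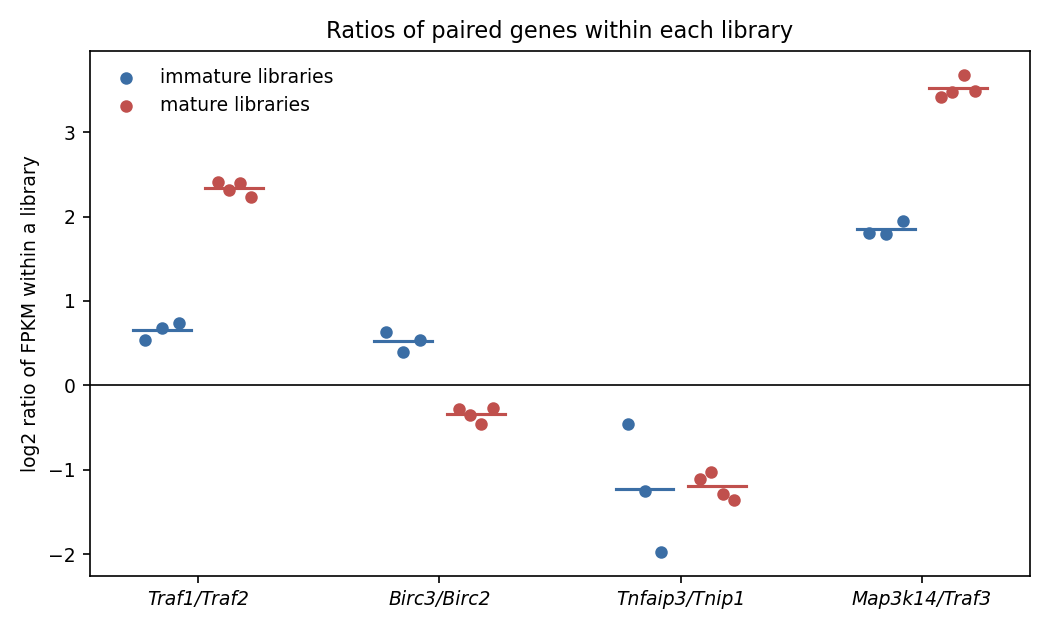
Log2 ratio of the FPKM values of paired genes within each immature (blue) and mature (red) library, with a line at each group mean. The Birc3 to Birc2 ratio is above 0 in the 3 immature libraries and below 0 in the 4 mature libraries, and only the Tnfaip3 to Tnip1 ratios overlap.

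Levels per length were compared among the genes by FPKM. In immature cells Tnip1 was the highest at 24.1 ± 0.531 FPKM (SD, n = 3), followed by Map3k14 at 13.5, Birc3 at 11.6 and Tnfaip3 at 11.4 FPKM. Birc2 at 8.04, Traf6 at 7.55 and Traf1 at 6.68 FPKM came next, and Traf5 at 4.60, Traf2 at 4.25 and Traf3 at 3.75 FPKM were the lowest. The ranges of neighbors overlapped from Birc3 through Tnfaip3, Birc2 and Traf6 to Traf1. In mature cells Map3k14 led at 65.4 ± 7.05 FPKM (SD, n = 4), ahead of Traf1 at 56.2 ± 3.43 and Tnip1 at 53.8 ± 2.23 FPKM, with overlapping ranges. Birc2 followed at 35, Birc3 at 27.7 and Tnfaip3 at 23.6 FPKM, again with overlap between neighbors. Traf6 was at 18.0 FPKM and Traf2 at 11.1 FPKM, and Traf3 at 5.76 and Traf5 at 4.87 FPKM overlapped at the bottom.

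These per-length levels depend on the length used. With the summed counts as library total, the deposited FPKM implies a length 1.08 to 1.11 times the union of a gene's exons in all 10 genes. The factor is nearly alike in all genes, so it can lie in the library total used, with the union as the length. For Traf1 that union is 8819 bases, while its longest coding transcript in GENCODE M21 has 3436 bases. Divided by the longest coding transcript, Traf1 was the highest of the 10 in mature cells at 153 ± 16.0 CPM per kilobase (SD, n = 4), ahead of Map3k14 at 106 CPM per kilobase. In immature cells it ranked 5, at 19.5 CPM per kilobase.

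Within the mature group, replicate 3 deviated from the other libraries by amounts that differed among the genes. Relative to the average of mature replicates 1, 2 and 4, its log2 CPM was higher by 0.27 in Traf1, 0.19 in Traf2 and 0.16 in Traf5. It was lower in Traf6 (-0.54), Traf3 (-0.40) and Birc3 (-0.31), and between -0.18 and 0.032 in the remaining genes. Traf3 and Traf6 have the longest coding transcripts of the group, at 7060 and 6169 bases, and Traf5 the shortest, at 1964 bases. Over the 10 genes the deviation and the transcript length had a Spearman correlation of -0.503 and a Pearson correlation of -0.735, a description over genes of 1 library. Leaving this library out changed no call among the 10 genes.

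**Figure D4:**
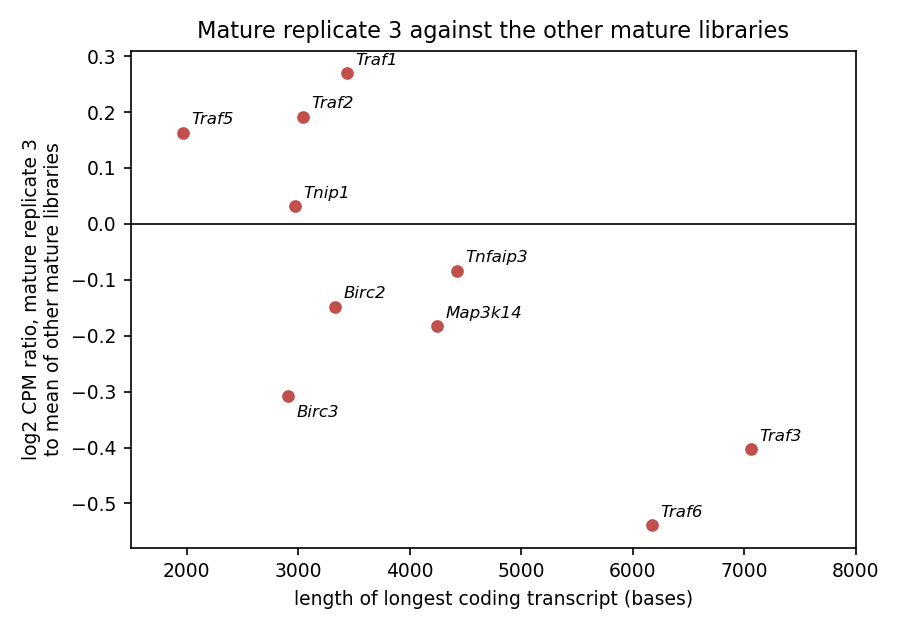
Log2 ratio of the CPM in mature replicate 3 to the average of mature replicates 1, 2 and 4, plotted against the length of the longest coding transcript in bases, with 1 point for each of the 10 genes. Traf6 and Traf3, the longest, are at -0.54 and -0.40, and Traf5, the shortest, is at 0.16.

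The genes around the group were described through 8 lists of the pathway. Over all tested genes 13.2% were called higher and 9.95% lower, and no list was tested against these shares. Among the receptors that bind TRAF proteins, 15 of 17 listed genes were tested, and 6 were higher and 2 lower by the criteria, with a median log2 fold change of 0.0031. Tnfrsf9, which encodes 4-1BB, rose from 150 ± 14.4 to 1106 ± 127 CPM, a log2 fold change of 2.88 (adjusted p = 6.2e-07). Cd40 rose by 2.74, Tnfrsf18 (GITR) by 2.66 and Tnfrsf4 (OX40) by 2.26 on the log2 scale. Tnfrsf1a, the main TNF receptor, and Tnfrsf14 were lower, with log2 fold changes of -1.28 and -1.24. The call of Tnfrsf14 was lost without immature replicate 1 (adjusted p = 0.0728), without immature replicate 3 (adjusted p = 0.0605) and, at a log2 fold change of -0.96, without mature replicate 3, and 1 to 3 receptors were called lower when single libraries were left out. Genes of this list thus lay on both sides.

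Of 11 NF-κB subunits and inhibitors, 8 were higher and 1 lower, with a median log2 fold change of 1.65. The subunits of the alternative pathway that NIK feeds, Relb and Nfkb2, rose by 2.63 and 2.34 on the log2 scale (adjusted p = 1.8e-06 and 3.0e-07). Relb went from 41.5 ± 2.46 to 257 ± 45.4 CPM and Nfkb2 from 104 ± 6.23 to 526 ± 19.2 CPM. Rel, another subunit, rose by 2.17, and Nfkbie, an inhibitor, by 1.78. Nfkbiz had a log2 fold change of -1.42 (adjusted p = 0.0195) with overlapping groups. Without immature replicate 1 the value for Nfkbiz was -0.78 (adjusted p = 0.0827).

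Among 10 other TRAF family and TRAF-binding genes, 2 were higher and 2 lower, with a median log2 fold change of -0.050. Traf4, an adaptor best known from development, rose by 1.35 and Traf3ip2, the adaptor of the IL-17 receptor, by 1.08 on the log2 scale. Tifab fell by 3.23 on the log2 scale, from 248 ± 6.52 to 26.5 ± 4.04 CPM (adjusted p = 4.5e-07). Tifa, its relative that activates TRAF6, fell by 1.79 on the log2 scale. Among 12 A20 partners and other deubiquitinases, 2 were higher and 0 lower, with a median of 0.32. These were Otud7b, a deubiquitinase that acts on TRAF3, at 1.38 and Tnip3, a relative of Tnip1, at 1.11 on the log2 scale.

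The remaining lists held few calls, beside shares of 13.2% higher and 9.95% lower over all tested genes. Of 10 other inhibitors of apoptosis and their antagonists, 0 were higher and 2 lower, Naip1 (-2.46) and Birc5 (-1.70), with a median log2 fold change of -0.29. Birc5 encodes survivin, a protein of cell division, and Naip1 belongs to a family of near copies that can share reads. Of 9 genes of the linear ubiquitin assembly complex and death-receptor adaptors, 0 passed the edgeR criteria. At an unadjusted p under 0.05, 2 were higher and 4 lower, where 4737 and 4500 of all 17461 tested genes were. In 10 of the 18 alternative fits 1 gene was called higher, among them DESeq2, edgeR with other size factors and limma with a pseudocount of 0.1, and in 8 of them 0, among them limma with a pseudocount of 1. Of 13 IL-1 and Toll-like receptor adaptors and kinases, Peli2, a ubiquitin ligase, passed as lower (-1.44). By the adjusted p alone, 8 were lower and 2 higher, where 22.9% and 23.2% of all tested genes were. Of 10 TAK1 and IKK kinases, 0 passed the criteria with edgeR, DESeq2 or limma. With the unadjusted p under 0.05, 0 were higher and 2 lower, beside the same 4737 and 4500 of all 17461 tested genes.

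**Figure D5:**
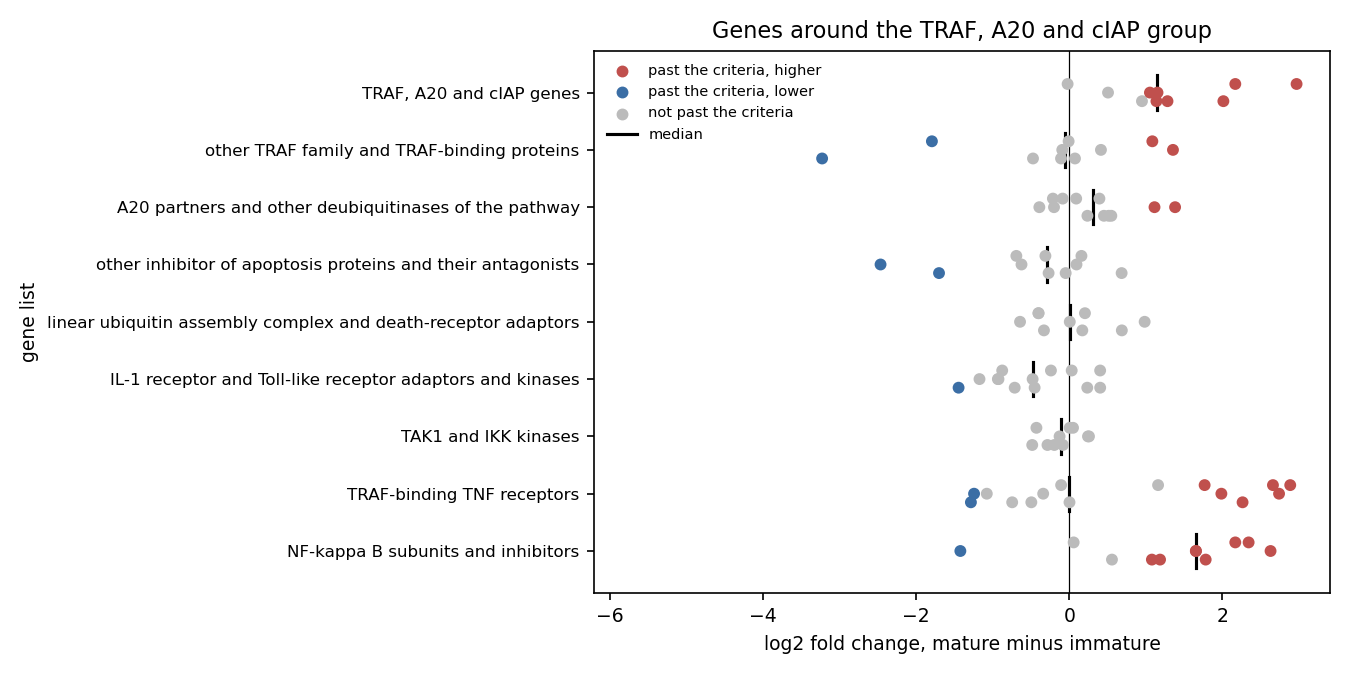
Log2 fold change (mature minus immature) of every tested gene in the TRAF, A20 and cIAP group and in the 8 lists around it, colored by whether the gene passed the criteria, with a bar at each median. The group itself (median 1.15) and the NF-κB subunits and inhibitors (median 1.65) lie mostly to the right of 0, the TNF receptors spread to both sides, and the kinases stay within -0.48 and 0.26.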

How the data were processed

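Flow-sorted immature (3) and mature (4) BMDC libraries were grouped by their labels. Both units were deposited by the authors in 1 table, as unnormalized counts of each gene and as FPKM, which divides by gene length and library total. The submitters' processing notes list cutadapt 1.9, HISAT2 2.2.1, StringTie 2.1.6, DESeq2, edgeR and the build mm9. The deposited coordinates are instead those of GRCm38, identical to GENCODE M21 for 24940 of 28588 matched genes (87.2%). The libraries were made with dUTP, and the strand setting of the counting is not given in the sources used here.

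Counts were analyzed in R 4.3.3 with edgeR 4.0.16 (filter on low counts, TMM normalization, quasi-likelihood test, Benjamini-Hochberg adjustment over 17461 genes), with the fold and q-value criteria of the study's methods. The 10 genes, the pathway lists and the marker lists were proposed with earlier results of these data known, even though the rule for the 10 uses symbols alone, so list counts are descriptions. The genes named are the 10, all genes of a list that passed the criteria where there are 5 or fewer and otherwise the 4 with the largest change, the 3 genes most like Traf1, and Cd80 and Cd86. Any other gene was named with its values in view. Results were recomputed with DESeq2 1.42.0, limma 3.58.1 on log2(FPKM + 1) and log2(FPKM + 0.1), other size factors and filters, halved counts, a replicate block and fits without each library. In simulated counts for this comparison with 200 genes changed 4-fold, edgeR and DESeq2 each found all 200 and limma found 166 (83%), and the number of unchanged genes called was 0 for each (17428, 27466 and 11370 genes tested). The simulation gave every gene the same dispersion and had no library that stood apart, unlike mature replicate 3 in these data. A call also needed the fold criterion, so the count of 0 says little about false calls here. Recovery of changes under 4-fold was not tested, and most of the 10 genes changed by less than 4-fold. Ratios were tested with scipy 1.17.1 in Python 3.11.15.

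No molecular tags are described, so depth speaks to counting error only. Proteins of the genes are not printed here.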

Additional observations from a re-analysis of the deposited data

Results flagged for a closer look

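One of the 14 values examined for a library far from the rest of its group, the CPM of each of the 10 genes and the 4 ratios in the mature group, stood out. In Tnip1 mature replicate 2, at 190.3 CPM, was separated from the other mature libraries (205, 205 and 206 CPM) by a gap that made up 0.928 of the group's whole range, above Dixon's 95% critical value. By chance 0.7 of the 14 values would be expected to stand out. All 4 mature libraries remained above the immature range of 93.7 to 98.9 CPM.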

How the results depend on the processing

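The 7 genes past the criteria passed them in all 18 alternative fits, Tnfaip3 in 7 of 18, and Traf3 and Traf5 in 0. The sign of Traf5 turned under DESeq2 (0.0021), library totals alone (0.082), upper-quartile factors (0.089), the filter at an FPKM of 1 (0.020), limma with pseudocounts of 1 and 0.1 (0.067 and 0.080) and mature replicate 1 alone (0.049), and ran from -0.052 to 0.033 without each library in turn. Tnfaip3 had 1.08 with mature replicate 1 alone (edgeR adjusted p = 0.0723, with the spread from the 3 immature libraries alone). Without each library in turn, Tnfaip3 ran from 0.66 to 1.44, Traf3 from 0.44 to 0.62, the genes called higher from 1940 to 2306 and those lower from 1633 to 1759. The log2 ratio of Tnfaip3 to Tnip1 differed between the groups by -0.35 to 0.41. Genes called higher numbered 1370 with the FPKM filter and 946 and 1390 with limma at pseudocounts of 1 and 0.1, and genes lower 822 with limma at 1, and the adjusted p alone gave 4047 higher and 4006 lower. Same-numbered libraries did not deviate together (Pearson correlations of 0.0285, -0.00114 and 0.0144 over 17461 genes), so the numbers were not taken as pairs. With a replicate block, 1936 genes were higher and 1680 lower, and 8 of the 10 genes passed, Tnfaip3 among them at 1.12. Averaged over the 3 same-numbered pairs, the ratio differences were 1.72, -0.89, 0.082 and 1.68, of which that of Tnfaip3 to Tnip1 was -0.66, 0.22 and 0.69 in the single pairs, with an exact sign-flip p of 0.25 at the smallest. The median log2 fold change of all genes was 0.055 and reached 0.17 with DESeq2, upper-quartile factors or no filter on low counts.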

Other observations

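The wide immature spread of Tnfaip3 was shared by few genes. Of 8975 genes with a mean of at least 10 CPM, 28 (0.312%) had an immature coefficient of variation as large as its 52.7%, where the median was 5.39%. The value in immature replicate 1 was 2.86 times that in replicate 3. In 18 genes (0.201%), Tnfaip3 included, replicate 1 was at least 2 times replicate 3 with replicate 2 between them. These genes were picked after their values were seen, they share no function that was tested, and replicates have no order. The ratio was largest in Gm21982 (20.9), Rps26-ps1 (18.7), Pou2f1 (9.82) and Hnrnpa3 (6.36), where immature replicate 3 was at 1.36 to 7.84 CPM. Next came Fosb (146, 71.3 and 35.4 CPM in immature replicates 1 to 3), Nfkbiz (58.8, 28.2 and 15.1 CPM), Ccrl2 and Cxcl2 (273.5, 144 and 80.4 CPM). The others were Gm42742, Dusp1, Gm45837, Rgs1, Klf2, Tnf, Cd69, Fos and Gm15501. Mean levels in mature cells differed among the 18, from 8.87 CPM in Tnf to 356 CPM in Rgs1, with 179.6 CPM in Tnfaip3. What set the spread among the immature libraries was not tested.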
